A study of Mus musculus with 16 samples.

Results

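*Basp1*, *Gap43*, *Marcks* and *Marcksl1* encode small acidic proteins that coat the inner face of the plasma membrane and are grouped here as growth-associated, PIP2-binding membrane proteins. The 4 genes were taken from the table of 30386 genes by their symbols, and each symbol matched 1 row. They were selected on values measured here, namely the difference in CPM between the transgenes, over all samples and within the samples numbered 1 to 4 and 5 to 8. Their differences between the transgenes are therefore described without a test. The cells were neural stem/progenitor cells (NSPCs) of mouse subventricular zone (SVZ), the region along the lateral ventricle where the adult brain keeps neural stem cells. The 8 *Dbx2*-NSPC cultures carried a constitutive *Dbx2* transgene, which encodes a homeodomain transcription factor, and the 8 *GFP*-NSPC cultures carried a *GFP* transgene as the control. Both groups came from C57BL/6 J/Babr mice aged 3 months, and both were transfected with a pTP6 plasmid, selected and kept with puromycin, and grown with EGF and FGF2 for 4 to 6 days in non-adherent culture. Each RNA sample, 100 ng, was made into a library that reads transcripts near their 3′ end. The cells are bulk cultures of transfected lines from more than 1 derivation, with 4 experiments for each pair of lines. The labels do not say which line pair a sample came from. The p-values measure the spread between these cultures, which include repeat cultures of the same lines, and not between mice. The fits do not separate the transgene from differences between individual transfected lines. The replicates of both groups are numbered 1 to 8 in the labels, which do not say what the samples numbered 1 to 4, or 5 to 8, have in common.

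MARCKS and its smaller relative MARCKSL1 carry a fatty acid at the amino end and a basic effector stretch that binds the membrane lipid PIP2, calmodulin and actin filaments. Protein kinase C phosphorylates that stretch, and phosphorylation or calmodulin releases it from the membrane and from PIP2. GAP43, a growth cone protein that binds calmodulin through an IQ motif, and BASP1, first described as a brain protein attached to the membrane, share these properties without sharing much sequence. The proteins are known in growing neurites, and BASP1 is also known in the nucleus as a corepressor of WT1.

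The beginnings of the coding sequences show the anchors that place these proteins at the membrane, so the first 30 bases of each are given in the GRCm38 genome, 5′ to 3′ on the coding strand, with the second codon in capitals.
Basp1 (chr15:25364880-25364909, minus strand): atgGGAggcaagctgagcaagaagaagaag
Gap43 (chr16:42340473-42340502, minus strand): atgCTGtgctgtatgagaagaaccaaacag
Marcks (chr10:37138506-37138535, minus strand): atgGGTgcccagttctccaagaccgcagcg
Marcksl1 (chr4:129513830-129513859, plus strand): atgGGCagccagagctctaaggctccccgg
The second codon is a glycine codon in *Basp1*, *Marcks* and *Marcksl1*, and glycine in that place is the residue to which N-myristoyltransferase attaches myristate. *Gap43* has a leucine codon there and has 2 cysteine codons among its first 10, and these cysteines are the known palmitoylation sites of GAP43. *Basp1* has 5 lysine codons among its first 10, against 1 in each of the other genes. The coding sequences hold 226, 227, 309 and 200 codons for *Basp1*, *Gap43*, *Marcks* and *Marcksl1*. Alanine codons make up 29.2% of *Basp1* and 28.8% of *Marcks*, and 20.3% of *Gap43* and 15.5% of *Marcksl1*, while glutamate codons make up 15.0% to 17.7% of each.

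The stretch most alike between *Marcks* and *Marcksl1* is shown because these genes, the closest relatives of the 4, had unlike differences between the transgenes. It is the window of 25 codons with the most matching codon meanings, and the bases that differ between the genes are in capitals.
Marcks, codons 146 to 170 (chr10:37136528-37136602, minus strand): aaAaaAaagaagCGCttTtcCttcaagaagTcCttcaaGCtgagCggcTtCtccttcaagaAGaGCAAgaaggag
Marcksl1, codons 87 to 111 (chr4:129514888-129514962, plus strand): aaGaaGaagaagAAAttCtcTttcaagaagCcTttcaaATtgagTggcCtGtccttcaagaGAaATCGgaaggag
Of the 75 bases, 55 are the same and 20 differ, and 19 of the 25 codons encode the same amino acid. The window holds 11 lysine, 5 phenylalanine and 5 serine codons in *Marcks*, and 10, 4 and 3 in *Marcksl1*, which is the basic, serine-containing composition known of the effector domain.

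All 4 genes were measured well above the limit of detection. The libraries held 1803928 to 3293285 reads, as recovered from the deposited CPM (reads of a gene scaled to the total of its sample), and 3 reads, taken as the floor, were worth 0.911 to 1.66 CPM. The lowest count of any of the 4 genes was 87 reads, for *Basp1*, and the highest was 4140, for *Marcks*. Such floors cover counting error only, because the reads carry no molecular identifiers as used here. The filter asked for over 1 CPM in 4 or more samples, which 12533 genes passed, among them all 4 genes. Differences are given on the log2(CPM + 0.5) scale, *Dbx2*-NSPCs minus *GFP*-NSPCs, with the standard error (SE) of limma's fit. For *Dbx2* itself the mean was 77.2 ± 51.8 CPM (SD, n = 8) under the *GFP* transgene and 155 ± 35.4 CPM under the *Dbx2* transgene, a log2 difference of 1.26 (SE 0.317, limma adjusted p = 0.00978). It was 0.54 (adjusted p = 0.0213) in the samples numbered 1 to 4 and 1.99 (adjusted p = 1.78e-09) in those numbered 5 to 8, and these differed by 1.45 (adjusted p = 0.000104). Whether the counted 3′ end is the one the transgene uses is not given in the sources used here. Markers of neural progenitors were abundant, with means of 788 CPM for *Nes*, 2452 CPM for *Vim* and 387 CPM for *Sox2*, while *Prom1* did not exceed 0.65 CPM. The 6 microglial markers summed to at most 1.63 CPM, with *Aif1* and *Tmem119* listed at 0 throughout, and the endothelial and mural markers to at most 8.39 CPM.

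*Basp1* (ENSMUSG00000045763, chr15:25363277-25413764, minus strand) differed most between the transgenes. In *GFP*-NSPCs it was at 173, 280, 313 and 252 CPM in the samples numbered 1 to 4, and at 1057, 1074, 963 and 989 CPM in those numbered 5 to 8. In *Dbx2*-NSPCs it was at 32.1, 37.9, 36.1 and 31.2 CPM in the samples numbered 1 to 4, and at 118, 111, 104 and 80.4 CPM in those numbered 5 to 8. All 8 *Dbx2*-NSPC samples lay below all 8 *GFP*-NSPC samples, and within each transgene the samples numbered 5 to 8 lay above those numbered 1 to 4. The means were 638 ± 413 CPM (SD, n = 8) and 68.8 ± 38.3 CPM, so that *Basp1* was 9.27-fold lower in *Dbx2*-NSPCs, a log2 difference of -3.08 (SE 0.426). It was 7.42-fold lower (log2 -2.84, SE 0.139) among the samples numbered 1 to 4 and 9.89-fold lower (log2 -3.31, SE 0.139) among those numbered 5 to 8. The SE of the overall difference was larger than that within either set of numbers because the sets lay at different levels, which the overall fit counts as spread. Compared number by number, *Basp1* was lower in *Dbx2*-NSPCs in 8 of 8, by 2.41 to 3.61 on the log2 scale. Among all tested genes it had rank 21 by the size of the decrease. In bulk cultures, fewer cells that express a gene and less RNA per cell cannot be told apart, and this holds for each difference below.

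**Figure D1:**
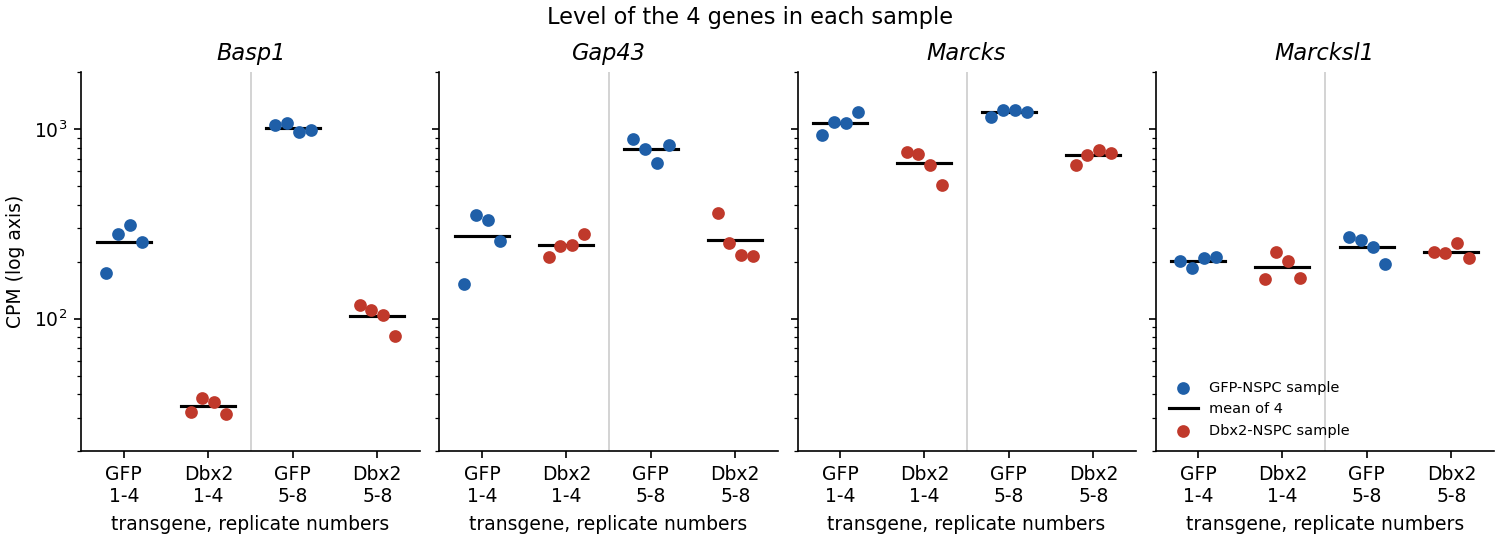
Level of each of the 4 genes in CPM (log axis) in each of the 16 samples, with *GFP*-NSPCs in blue, *Dbx2*-NSPCs in red, columns for the samples numbered 1 to 4 and 5 to 8, points in the order of their numbers within a column, and the mean of each 4 as a line. *Basp1* falls into 4 levels that do not overlap, *Gap43* is high in *GFP*-NSPCs numbered 5 to 8, *Marcks* falls into 2 levels by transgene, and the levels of *Marcksl1* overlap.

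*Gap43* (ENSMUSG00000047261, chr16:42248442-42340651, minus strand) was high in *GFP*-NSPCs numbered 5 to 8 and at like levels in the other samples. In *GFP*-NSPCs it was at 153, 354, 331 and 258 CPM in the samples numbered 1 to 4, and at 890, 789, 664 and 821 CPM in those numbered 5 to 8. In *Dbx2*-NSPCs it was at 213, 241, 245 and 279 CPM in the samples numbered 1 to 4, and at 363, 250, 216 and 213 CPM in those numbered 5 to 8. The transgenes overlapped among the samples numbered 1 to 4 and not among those numbered 5 to 8. The difference was -0.10 (SE 0.188) in the samples numbered 1 to 4, with means of 274 ± 90.6 CPM (SD, n = 4) and 244 ± 27.1 CPM. In those numbered 5 to 8 it was -1.63 (SE 0.188), with means of 791 ± 94.8 and 260 ± 70.3 CPM, a 3.04-fold lower level in *Dbx2*-NSPCs. Overall the difference was -0.86 (SE 0.295), and it was negative in 6 of 8 comparisons of the same number. The difference in the samples numbered 1 to 4 had no settled sign, since across 27 other ways of processing or leaving out a sample it ran from -0.36 to 0.05. *Mir6540*, a microRNA gene on the same strand, lies within *Gap43* and is not a row of the table.

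*Marcks* (ENSMUSG00000069662, chr10:37133375-37138920, minus strand) was lower in *Dbx2*-NSPCs by about the same amount in both sets of numbers. In *GFP*-NSPCs it was at 927, 1091, 1085 and 1227 CPM in the samples numbered 1 to 4, and at 1161, 1270, 1261 and 1228 CPM in those numbered 5 to 8. In *Dbx2*-NSPCs it was at 754, 739.9, 648 and 507 CPM in the samples numbered 1 to 4, and at 649.8, 732, 781 and 750.2 CPM in those numbered 5 to 8. The highest *Dbx2*-NSPC sample, at 781 CPM, lay below the lowest *GFP*-NSPC sample, at 927 CPM, and the sets of numbers overlapped within each transgene. The means were 1156 ± 117 CPM (SD, n = 8) and 695 ± 90.2 CPM, which is 39.9% lower in *Dbx2*-NSPCs (log2 -0.74, SE 0.091). The difference was -0.72 (SE 0.11) and -0.76 (SE 0.11) in the samples numbered 1 to 4 and 5 to 8.

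*Marcksl1* (ENSMUSG00000047945, chr4:129513581-129515985, plus strand), the relative of *Marcks* with the matching effector stretch shown above, differed little. In *GFP*-NSPCs it was at 200.2, 185, 208 and 211 CPM in the samples numbered 1 to 4, and at 268, 259.8, 238 and 195 CPM in those numbered 5 to 8. In *Dbx2*-NSPCs it was at 161, 226, 200.3 and 164 CPM in the samples numbered 1 to 4, and at 224, 221, 249.7 and 209 CPM in those numbered 5 to 8. The transgenes overlapped in both sets. The means were 221 ± 30.9 CPM (SD, n = 8) and 207 ± 30.9 CPM, with a log2 difference of -0.10 (SE 0.103), and -0.11 (SE 0.113) and -0.08 (SE 0.113) within the sets. The difference over all samples was smaller than its SE. It was negative in 5 of 8 comparisons of the same number, which ran from -0.36 to 0.29. Across 27 other ways of processing or leaving out a sample it ran from -0.14 to -0.05, and some of these, such as the replicate block, cannot change it. The 3′ end of *Hdac1* lies 0.1 kb from that of *Marcksl1* on the other strand, and the strand setting of the counting is not given in the sources used here. *Hdac1* was at 58.2 ± 18.8 and 51.4 ± 10.8 CPM (SD, n = 8).

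**Figure D2:**
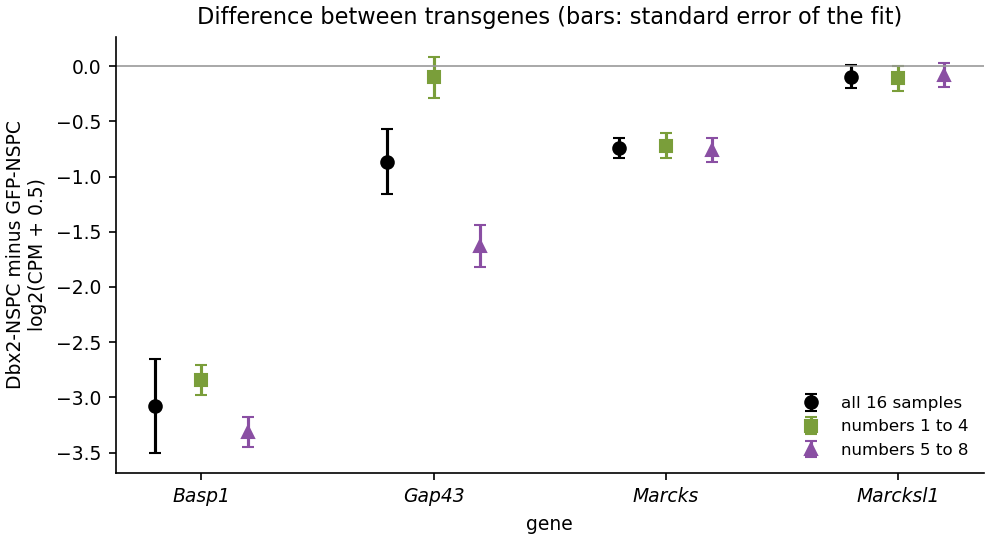
Difference between *Dbx2*-NSPCs and *GFP*-NSPCs in log2(CPM + 0.5) for each of the 4 genes, over all 16 samples (circles), the samples numbered 1 to 4 (squares) and those numbered 5 to 8 (triangles), with the standard error of the fit as bars. *Basp1* lies near -3 in all of them and *Marcks* at -0.76 to -0.72, *Gap43* is at -0.10 in one set and -1.63 in the other, and *Marcksl1* is close to 0.

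Of all 12533 tested genes, 15.8% were called at an adjusted p under 0.05 between the transgenes, and 20.5% and 20.7% within the samples numbered 1 to 4 and 5 to 8. Of the 4 genes, 2 (*Basp1* and *Marcks*) were called over all samples, the same 2 among the samples numbered 1 to 4, and 3 (with *Gap43*) among those numbered 5 to 8, each of them as lower. Calls as lower made up 7.78%, 9.85% and 10.2% of all tested genes in these comparisons. Since the 4 were chosen with these differences known, these calls are no test of them, and nothing is read from the counts. *Gap43* was also called over all samples under some alternatives, which are no test of it either. These were the replicate number as a block, the set of numbers as a covariate, and edgeR. The same held without any 1 of the *GFP*-NSPC samples 1 and 4 or *Dbx2*-NSPC sample 5. *Basp1* and *Marcks* did not overlap between the transgenes in all samples, as was so of 1.81% of tested genes in this direction. Among the samples numbered 1 to 4 the same 2 did not overlap, against 10% of tested genes, and among those numbered 5 to 8 it was 3, against 12.6%.

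The sets of numbers also differed within each transgene, for *Basp1* and *Gap43* more than for *Marcks* and *Marcksl1*. Within *GFP*-NSPCs, *Basp1* was 4.01-fold and *Gap43* 2.89-fold higher in the samples numbered 5 to 8 than in those numbered 1 to 4, without overlap. *Marcks* was 1.14-fold and *Marcksl1* 1.20-fold higher, with overlap. Within *Dbx2*-NSPCs, *Basp1* was 3.00-fold higher, again without overlap, and *Gap43*, *Marcks* and *Marcksl1* were 1.07-fold, 1.10-fold and 1.20-fold higher, with overlap. For *Gap43* the level thus differed between the sets in *GFP*-NSPCs, and the *Dbx2*-NSPC samples of both sets lay near the lower of its levels. Of all tested genes, 15.0% in *GFP*-NSPCs and 10.4% in *Dbx2*-NSPCs were higher in the samples numbered 5 to 8 without overlap. The transgene difference of *Basp1* was 0.47 (SE 0.197) further from 0 among the samples numbered 5 to 8, in log2 units, and that of *Gap43* 1.53 (SE 0.265) further. Those of *Marcks* and *Marcksl1* differed between the sets by -0.04 (SE 0.156) and 0.03 (SE 0.160). *Dbx2* moved the other way between the sets in *GFP*-NSPCs, at 120 ± 35.6 CPM (SD, n = 4) in the samples numbered 1 to 4 and 34.0 ± 3.96 CPM in those numbered 5 to 8.

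*GFP*-NSPC sample 1 lay below *GFP*-NSPC samples 2 to 4 for *Basp1* (173 against 252 to 313 CPM), *Gap43* (153 against 258 to 354 CPM) and *Marcks* (927 against 1085 to 1227 CPM), but not for *Marcksl1* (200.2 against 185 to 211 CPM). The same sample had the highest *Dbx2* level of its group, 171 CPM, within the 114 to 232 CPM (median 147) of the *Dbx2*-NSPC samples, so that *Dbx2* overlapped between the transgenes. Without it, or without any other single sample, the differences over all samples ran from -3.30 to -2.92 for *Basp1*, from -1.09 to -0.73 for *Gap43* and from -0.78 to -0.68 for *Marcks*.

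Markers of progenitors and of other cells were measured beside these differences. For comparison, 15.8% of all tested genes were called over all samples, and 20.5% and 20.7% within the samples numbered 1 to 4 and 5 to 8. Calls as lower made up 7.78%, 9.85% and 10.2%. The 8 progenitor markers summed to 5252 to 5602 CPM with *GFP* and 4314 to 5285 CPM with *Dbx2* in the samples numbered 1 to 4, and to 5017 to 5225 CPM and 4025 to 4538 CPM in those numbered 5 to 8. The progenitor marker with the highest mean was *Vim*, at 2452 CPM. Of the 7 tested progenitor markers, 3 were called lower with *Dbx2* over all samples and 4 in each set of numbers, and 0 were called higher in these fits of limma. The 9 markers of neurons and neuroblasts summed to 933 to 1003 CPM with *GFP* and to 792 to 847 CPM with *Dbx2* in the samples numbered 1 to 4. In the samples numbered 5 to 8 they summed to 1230 to 1304 CPM and 785 to 942 CPM, so that the highest sums stood in the samples with the highest *Gap43* and *Basp1*. Most of each sum was *Map2*, with a mean of 902 CPM, and of the 8 tested markers 1 was called as lower over all samples. Within the samples numbered 1 to 4, 1 was called higher and 5 lower (median -1.27), and within those numbered 5 to 8, 3 were called higher and 1 lower (median 0.39), so that in the latter more markers were called higher while the sum was lower. *Stmn2* was listed at 0 in all samples, and *Dcx*, *Syt1* and *Snap25* did not exceed 6.84, 7.16 and 3.00 CPM. The 7 astrocyte markers summed to 2019 to 2488 CPM with *GFP* and 1015 to 1422 CPM with *Dbx2* in the samples numbered 1 to 4, and to 713 to 977 CPM and 522 to 613 CPM in those numbered 5 to 8. Their sum was thus lower in the samples numbered 5 to 8, where *Basp1* was higher under both transgenes and *Gap43* under *GFP*. Of the 6 tested astrocyte markers, 1 was called higher and 2 lower over all samples, 1 and 2 in the samples numbered 1 to 4, and 3 and 2 in those numbered 5 to 8, and *Gjb6* was listed at 0. The astrocyte marker with the highest mean was *Slc1a3*, at 755 CPM. The median difference of the tested astrocyte markers was -0.35 in the samples numbered 1 to 4. It was 0.51 in those numbered 5 to 8, where the sum was lower with *Dbx2*. The 8 oligodendrocyte lineage markers, mostly *Olig1* and *Olig2*, had 0 of 5 tested markers called, and *Mog* was listed at 0. The 4 ependymal markers summed to 9.66 to 37.6 CPM, with 1 of 3 tested markers called higher and *Tmem212* listed at 0. The part of these cells in the differences of the 4 genes was not tested.

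The profiles of the 4 genes over the 16 samples were compared with those of 8650 other tested genes that averaged 10 CPM or more, by the root mean square difference of the log2 values after each gene was centred on its mean. For *Basp1* the most alike was *Pcp4l1*, which encodes a small protein with an IQ motif, with a difference of 0.69 against a median of 1.79 over the compared genes. It was followed by *Cdh6* (a cadherin, 0.87), *Peg10* (an imprinted gene, 0.93), *Nxph1* (a neurexophilin, 0.93) and *Pdpn* (podoplanin, 0.94). *Pcp4l1* and *Nxph1* differed between the transgenes by -3.28 and -2.74, close to the -3.08 of *Basp1*. For *Gap43* the most alike were *Hmga2* (a chromatin protein, 0.33), *Gm26917* (0.36), *Nup210* (a nuclear pore protein, 0.36), *Tnc* (tenascin C, 0.36) and *Bex2* (0.37), against a median of 0.81. *Hmga2* differed between the transgenes by -0.03 and -1.20 in the samples numbered 1 to 4 and 5 to 8, and *Tnc* by -0.14 and -1.24, which is the pattern of *Gap43*. For *Marcks* the most alike were *Cct2* (a chaperonin subunit, 0.11), *Rap1b* (a small GTPase, 0.12), *Peli1* (a ubiquitin ligase, 0.12), *Prkd3* (protein kinase D3, 0.12) and *Lin7c* (a scaffold protein, 0.14), against a median of 0.48. For *Marcksl1* they were *Sec11a*, *Taok1*, *Faf2*, *Snx4* and *1110059E24Rik*, at 0.10 to 0.14 against a median of 0.34. Among the 4 genes, *Marcks* and *Marcksl1* were closest (0.37), but this was above the median of 0.34 for *Marcksl1* and below that of 0.48 for *Marcks*. *Basp1* and *Marcksl1* were farthest apart (1.70 as the difference, against 1.25 for *Basp1* and *Gap43*). The measure is not scaled, so genes that vary little lie close to each other. These are descriptions of the same samples in which the 4 genes were chosen.

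The pathway around these proteins was read from 9 lists with 153 genes, of which 139 were tested. Of these, 47 passed the test between the transgenes, 19 higher and 28 lower in *Dbx2*-NSPCs, which is 33.8% against 15.8% of all tested genes and 17.5% of those that averaged 10 CPM or more. The median difference over the 139 genes was -0.04, and that over all tested genes was -0.02. Within the samples numbered 1 to 4, 51 were called, and within those numbered 5 to 8, 48. The transgene difference itself differed between the sets for 22 of the 139 (15.8%), against 9.44% of all tested genes. The lists were chosen with earlier results of these data known, so nothing is read from these shares about the pathway. The genes named from each list are the called ones with the largest differences that averaged 10 CPM or more in 1 of the groups.

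**Figure D3:**
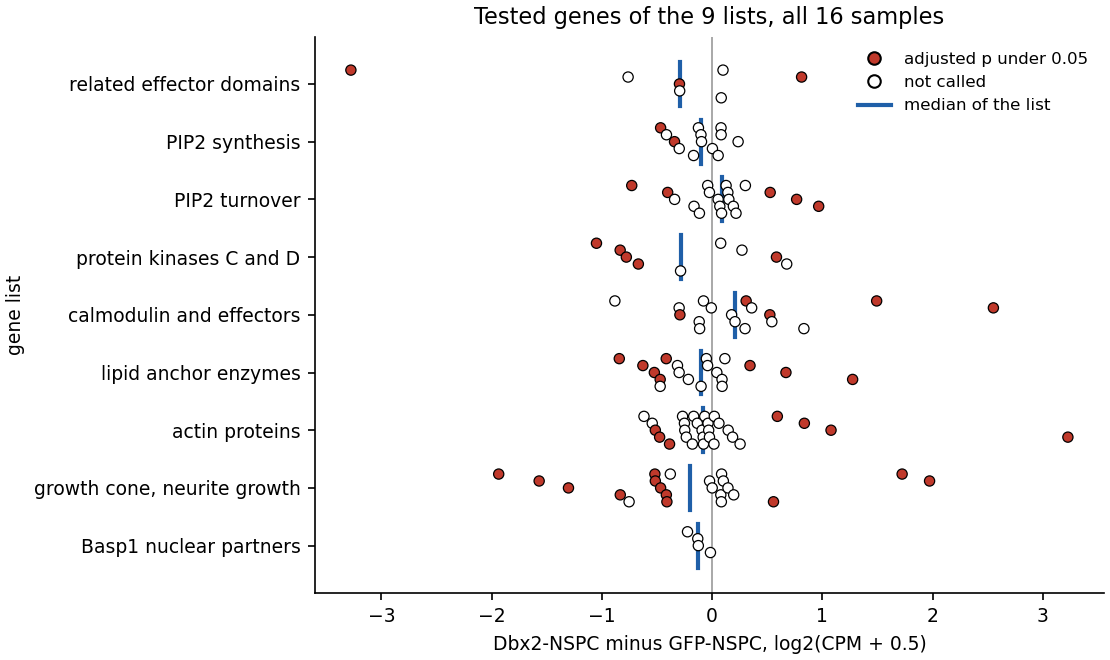
Difference between *Dbx2*-NSPCs and *GFP*-NSPCs in log2(CPM + 0.5) for each of the tested genes of 9 lists around these membrane proteins, with genes at an adjusted p under 0.05 in red, other genes in white and the median of each list as a blue line; the vertical spread within a list only separates the points. *Pcp4l1* is the point farthest to the left, at -3.28, *Gsn* the point farthest to the right, at 3.23, and the medians lie between -0.29 and 0.21.

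Of the other genes with MARCKS-like effector domains or related IQ motifs, 7 were tested, 1 was higher and 2 were lower, with a median of -0.29. *Pcp4l1* fell from 211 ± 53.6 CPM (SD, n = 8) to 31.0 ± 25.6 CPM, a log2 difference of -3.28 (SE 0.457, adjusted p = 5.52e-05). Its log2 difference was -4.32 among the samples numbered 1 to 4 and -2.235 among those numbered 5 to 8, and these differed (adjusted p = 7.05e-07), in the other order from *Basp1*. Of the adducins, which cap actin filaments and end in a MARCKS-like domain, *Add2* rose by 0.81 (adjusted p = 0.000957), from 25.6 ± 5.27 to 45.5 ± 11.7 CPM. *Add3* was lower by a log2 difference of -0.30 (adjusted p = 0.0423), and its adjusted p reached 0.0856 over the alternatives. The call was lost in 15 of them, among them without any 1 of *GFP*-NSPC samples 2, 3, 4 and 6 or *Dbx2*-NSPC samples 1, 2, 5, 6, 7 and 8.

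*Akap12*, a scaffold for protein kinases A and C, and *Nrgn*, which encodes neurogranin, a relative of GAP43 through its IQ motif, moved in opposite directions in the sets of numbers. They are named after their values were seen. *Akap12* was at 91.9 ± 21.9 CPM (SD, n = 4) with *GFP* and 139 ± 43.2 CPM with *Dbx2* in the samples numbered 1 to 4 (log2 0.57, adjusted p = 0.0191). In those numbered 5 to 8 it was at 145 ± 16.1 and 33.6 ± 1.88 CPM (log2 -2.09, adjusted p = 1.32e-09). *Nrgn* was at 57.1 ± 6.45 CPM (SD, n = 4) and 37.5 ± 10.1 CPM in the samples numbered 1 to 4 (log2 -0.63, adjusted p = 0.00347). In those numbered 5 to 8 it was at 78.4 ± 14.3 and 135 ± 9.40 CPM (log2 0.80, adjusted p = 0.000326). Of the 139 list genes, 8 were called in opposite directions in the sets, against 1.76% of all tested genes.

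PIP2, the lipid these proteins bind, is made by phosphatidylinositol kinases and removed by phospholipase C and phosphatases. Of 13 tested genes of PIP2 synthesis, 0 were higher and 2 were lower in the limma fit over all samples. Within the samples numbered 1 to 4, 1 was called, as lower, and within those numbered 5 to 8, 0 were called. *Pip5k1c*, a kinase that makes PIP2, fell by 0.47 (adjusted p = 0.00728), from 61.0 ± 10.3 to 43.9 ± 6.32 CPM (SD, n = 8). Its log2 difference was -0.60 (adjusted p = 0.00481) in the samples numbered 1 to 4 and -0.34 (adjusted p = 0.111) in those numbered 5 to 8. *Pip4k2a*, which makes PIP2 from another phosphoinositide, fell by 0.34 (adjusted p = 0.0136), from 59.9 ± 6.86 to 47.0 ± 4.04 CPM. It was called in neither set, at -0.35 (adjusted p = 0.0598) and -0.34 (adjusted p = 0.0672). Of 19 tested genes of PIP2 turnover, 3 were higher and 2 lower. The phospholipase C gene *Plcd4* rose by 0.77 (adjusted p = 1.77e-06), from 97.2 ± 11.3 to 165 ± 13.6 CPM, and the phosphoinositide phosphatase gene *Inpp5f* fell by 0.73 (adjusted p = 0.000153), from 44.1 ± 6.51 to 26.3 ± 3.40 CPM, both without overlap of the samples. Other phospholipase C genes, *Plcb1* (log2 0.53, adjusted p = 0.0331) and *Plce1* (-0.40, adjusted p = 0.0368), were called as well. The call of *Plcb1* was lost without any 1 of *GFP*-NSPC samples 4, 5 and 6 or *Dbx2*-NSPC samples 2, 6, 7 and 8 (adjusted p up to 0.0689). That of *Plce1* was lost without any 1 of *GFP*-NSPC samples 2, 5, 6 and 8 or *Dbx2*-NSPC samples 3, 6, 7 and 8, and its adjusted p reached 0.0718 over the alternatives. The count of 5 fell to 2 without any 1 of *GFP*-NSPC samples 5 and 6 or *Dbx2*-NSPC samples 7 and 8, and to 3 without any 1 of *GFP*-NSPC samples 4 and 8 or *Dbx2*-NSPC samples 2, 3 and 6.

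Protein kinase C phosphorylates the effector domain, and protein kinases D act downstream of it. Of 9 tested genes, 1 was higher and 4 were lower, with a median of -0.29. *Prkca* rose by 0.58 (adjusted p = 0.00198), from 36.9 ± 6.92 to 54.9 ± 5.63 CPM (SD, n = 8), and *Prkd3* fell by 0.78 (adjusted p = 0.000273), from 64.9 ± 10.3 to 37.8 ± 6.51 CPM, both without overlap. *Prkci*, which encodes an atypical protein kinase C, fell by 0.83 (adjusted p = 0.0236), from 24.16 ± 5.41 to 14.15 ± 5.02 CPM. Its log2 difference was -1.175 (adjusted p = 0.00408) in the samples numbered 1 to 4 and -0.493 (adjusted p = 0.25) in those numbered 5 to 8. *Prkd1*, at 14.3 ± 3.49 and 9.06 ± 3.40 CPM, had a log2 difference of -0.67 (adjusted p = 0.0392), and its adjusted p reached 0.0782 over the alternatives. Its call was lost in 11 of them, among them without any 1 of *GFP*-NSPC samples 1, 2, 3, 4 and 6 or *Dbx2*-NSPC samples 4, 6, 7 and 8. The count of 5 fell to 3 without any 1 of *GFP*-NSPC sample 6 or *Dbx2*-NSPC samples 4 and 7, and with no filter on low values.

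Calmodulin binds all of these proteins except where phosphorylation prevents it. Of 17 tested genes of calmodulin and its effectors, 4 were higher and 1 was lower, with a median of 0.21. The kinase gene *Camk2a* rose by 2.55 (adjusted p = 0.000128), from 3.90 ± 3.03 to 21.3 ± 7.79 CPM (SD, n = 8). In the *GFP*-NSPC samples numbered 1 to 4 it was near the floor of 3 reads, at 1.59 ± 0.91 CPM (SD, n = 4). The kinase gene *Camk1* rose by 1.49 (adjusted p = 5.22e-05), from 28.5 ± 8.76 to 81.0 ± 24.8 CPM (SD, n = 8). *Ppp3ca*, which encodes the catalytic subunit of calcineurin, rose by 0.31 (adjusted p = 0.00946). Its log2 difference was 0.396 (adjusted p = 0.00552) in the samples numbered 1 to 4 and 0.223 (adjusted p = 0.121) in those numbered 5 to 8.

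Of 19 tested genes for the enzymes that attach and remove the lipid anchors, 3 were higher and 5 lower. Among the palmitoyltransferases, *Zdhhc2* rose by 1.28 (adjusted p = 0.00049), from 13.0 ± 3.97 to 31.1 ± 7.28 CPM (SD, n = 8), and *Zdhhc17* fell by 0.84 (adjusted p = 0.000434), from 31.9 ± 7.33 to 17.3 ± 2.57 CPM. Among the enzymes that remove palmitate, *Lypla2* rose by 0.67 (adjusted p = 0.00256) and *Abhd17a* fell by 0.63 (adjusted p = 0.00205).

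Of 29 tested genes for actin proteins, most of them regulated by PIP2, 4 were higher and 3 lower, with a median of -0.08. Within the samples numbered 1 to 4, 6 were called higher and 3 lower (median 0.04), and within those numbered 5 to 8, 3 higher and 9 lower (median -0.19). Of all tested genes, 20.5% and 20.7% were called in these sets, and 9.85% and 10.2% were called lower. The transgene difference differed between the sets for 6 of the 29, against 9.44% of all tested genes. The list was chosen with earlier results known, so nothing is read from these counts. *Gsn*, which encodes the severing protein gelsolin, rose from 1.16 ± 0.75 to 14.1 ± 5.21 CPM (SD, n = 8), a log2 difference of 3.23 (adjusted p = 1.95e-06), with *GFP*-NSPC levels near the floor of 3 reads. *Actn1* (actinin), *Pfn2* (profilin) and *Cap2* (cyclase-associated protein) rose by 0.84 (adjusted p = 0.000875), 0.59 (adjusted p = 0.00255) and 1.08 (adjusted p = 0.013). The increase of *Cap2* was 1.67 in the samples numbered 1 to 4 and the difference was 0.48 (adjusted p = 0.192) in those numbered 5 to 8.

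Of 22 tested genes of growth cones and neurite growth, which is the setting in which GAP43 and BASP1 are best known, 3 were higher and 9 lower, with a median of -0.20. *Gpm6a*, which encodes a proteolipid protein of neuronal membranes, fell by 1.94 (adjusted p = 4.86e-06), from 628 ± 155 to 171 ± 65.4 CPM (SD, n = 8), without overlap. *Nrn1* (neuritin) fell by 0.83 (adjusted p = 0.000871), from 62.0 ± 16.1 to 33.9 ± 5.34 CPM. The stathmin gene *Stmn3* fell by 1.30 (adjusted p = 0.0132), by 2.04 in the samples numbered 1 to 4 and by 0.57 in those numbered 5 to 8. *Dpysl3*, a growth cone gene of the CRMP family, had the order of *Gap43*, with decreases of 0.60 and 2.54 in the samples numbered 1 to 4 and 5 to 8. Overall it fell by 1.57 (adjusted p = 0.0231), and with edgeR its adjusted p was 0.124. Of the nuclear partners of BASP1, 0 of 4 tested genes were called with limma, and *Wt1* did not pass the filter, at 0.68 CPM or less.

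The nearest tested genes on the chromosomes of the 4 were read too, 3 on each side of each, many of them far away. Of these, 7 of 24 were called, each of them lower in *Dbx2*-NSPCs. Of all tested genes, 15.8% were called and 7.78% called lower. Around *Basp1* the decreases were those of *Cdh6* (1.68, adjusted p = 0.000833), *Cdh10* (0.81, adjusted p = 0.0374) and *Retreg1* (1.53, adjusted p = 0.00516), the last of these at 2.28 ± 0.89 and 0.58 ± 0.63 CPM (SD, n = 8). The cadherin genes lie 12189.6 and 6349.0 kb from *Basp1*, and *Retreg1* lies 429.4 kb from it. The nearest tested gene on the other side, *Myo10*, 208.8 kb away, was at 269 ± 62.3 and 260 ± 35.9 CPM (SD, n = 8), with a log2 difference of -0.02 (adjusted p = 0.938). *Gm2824*, on the first side, was near the floor of 3 reads, at 1.09 ± 0.95 and 0.17 ± 0.48 CPM, with a log2 difference of -1.21 (adjusted p = 0.0506, and 0.0325 with the replicate block). It was called in 9 alternatives, and its difference was -2.56 with a pseudocount of 0.1 and -2.67 with edgeR. Around *Gap43*, *Igsf11*, 3221.3 kb away, fell by 1.52 (adjusted p = 0.000354). *Lsamp*, 66.8 kb from *Gap43*, had a log2 difference of -0.41 (adjusted p = 0.413). It differed between the sets of numbers in the order opposite to that of *Gap43* (-0.94 and 0.13, adjusted p of the difference = 0.00023). Around *Marcks*, *Hdac2*, 131.5 kb away, fell by 0.58 (adjusted p = 0.00282), from 258 ± 62.4 to 168 ± 12.2 CPM. *Tube1*, 1995.1 kb away, had a log2 difference of -0.76 (adjusted p = 0.0297). *Lama4*, 1826.6 kb away and near the floor in *Dbx2*-NSPCs, had one of -1.53 (adjusted p = 0.0237). *Frk* had a log2 difference of 0.84 (adjusted p = 0.372, and 0.0483 with the replicate block). Around *Marcksl1*, 0 of 6 were called in limma's fit, and *Tmem234* had 0.20 (adjusted p = 0.14, and 0.026 with the replicate block). The call of *Cdh10* was lost without any 1 of *GFP*-NSPC samples 1, 2, 3, 4 and 7 or *Dbx2*-NSPC samples 3, 4, 5, 6 and 8, and that of *Tube1* without any 1 of *GFP*-NSPC samples 5, 6 and 7 or *Dbx2*-NSPC samples 1, 2 and 3. Over all alternatives their adjusted p reached 0.0751 and 0.063. The call of *Lama4* was lost without *GFP*-NSPC sample 6 (adjusted p = 0.0516).

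**Figure D4:**
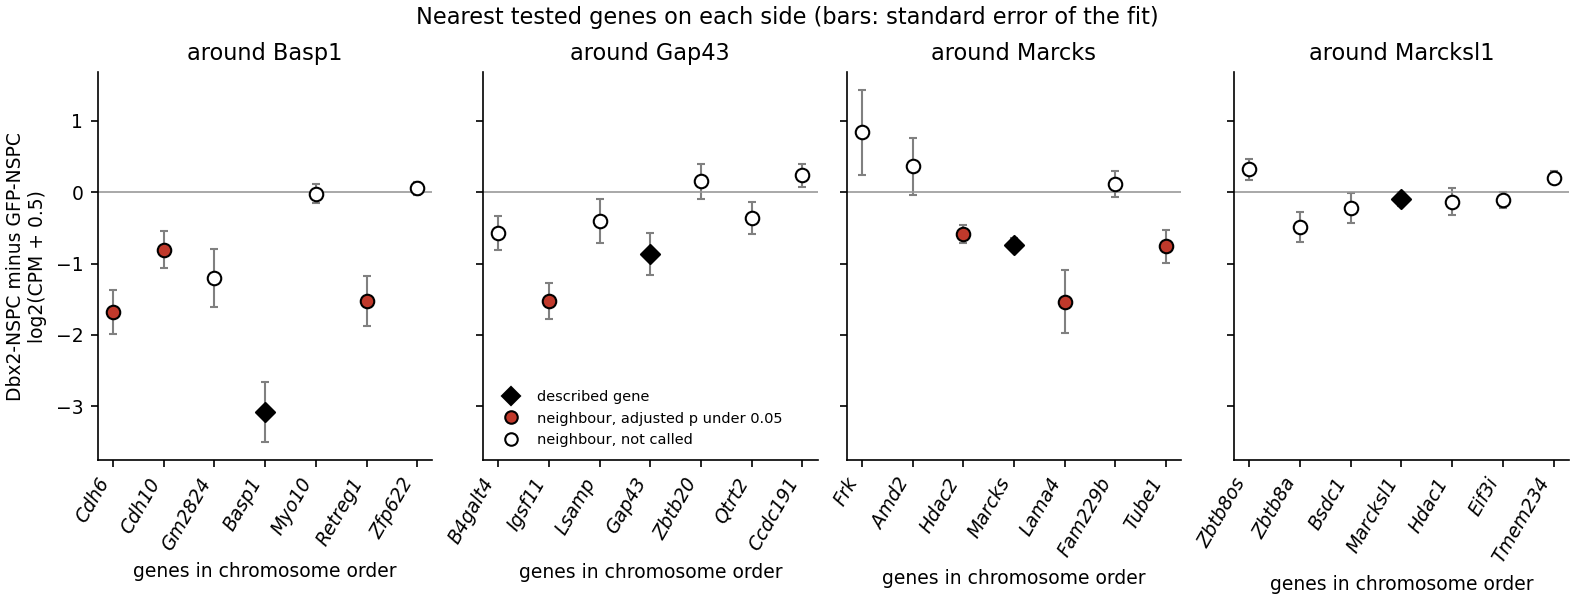
Difference between *Dbx2*-NSPCs and *GFP*-NSPCs in log2(CPM + 0.5), with its standard error, for each of the 4 genes (black diamonds) and the 3 nearest tested genes on each side in chromosome order; distances are not to scale. Neighbours at an adjusted p under 0.05 are red, and all 7 of them are below 0, with 3 around *Basp1*, 1 around *Gap43*, 3 around *Marcks* and 0 around *Marcksl1*.

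The sequences before the starts of *Basp1* and *Marcksl1* are given because homeodomain factors such as DBX2 are known to bind motifs built on TAAT. They are the 250 bases before the RefSeq start in GRCm38.p6, 5′ to 3′ on the gene's strand, with each CG in capitals, and those of *Gap43* and *Marcks* were not used here.
Basp1 (chr15:25413765-25414014, minus strand): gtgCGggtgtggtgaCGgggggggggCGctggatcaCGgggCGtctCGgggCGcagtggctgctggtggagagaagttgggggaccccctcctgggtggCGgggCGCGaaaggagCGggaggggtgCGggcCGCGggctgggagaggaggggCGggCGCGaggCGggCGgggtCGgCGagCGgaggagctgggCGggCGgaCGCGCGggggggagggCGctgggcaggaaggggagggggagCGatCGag
Marcksl1 (chr4:129513331-129513580, plus strand): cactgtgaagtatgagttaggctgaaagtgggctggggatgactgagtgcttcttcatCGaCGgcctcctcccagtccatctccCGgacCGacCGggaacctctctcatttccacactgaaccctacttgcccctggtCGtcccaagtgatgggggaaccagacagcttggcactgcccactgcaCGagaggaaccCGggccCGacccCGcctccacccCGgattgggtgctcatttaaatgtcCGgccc
The *Basp1* sequence holds 30 CG and is 78.8% G and C, and the *Marcksl1* sequence holds 12 CG and is 60.4% G and C, against medians of 6 CG and 52.4% over 32851 promoters of the same length. TAAT, searched on both strands, is in neither sequence and in 54.9% of all promoters. TAATTA, which contains TAAT, is in neither and in 4.8% of all, and the E-box CACGTG is in neither and in 6.0% of all. No match says only that these letters are not in these windows.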

How the data were processed

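The authors made 3′ end RNA-seq libraries from 16 NSPC cultures, checked reads with FastQC 0.11.8, trimmed them with bbduk, aligned them with STAR 2.5.0a to GRCm38, and deposited CPM for 30386 genes. The submitters' processing notes also name edgeR 3.36. The counting tool and its strand setting are not given in the sources used here. All columns were used, so 0 columns were left out. The CPM hold whole multiples of 1 read: 100% of the values above 0 were whole within 0.006 CPM, and the reads so recovered (1803928 to 3293285 a sample) were used for depth and for edgeR.

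Groups follow the transgene named in the labels. The filter was over 1 CPM in 4 or more samples, and the 12533 genes left were fitted on log2(CPM + 0.5) by limma 3.58.1 under R 4.3.3 (lmFit, eBayes with trend, 2-sided), with Benjamini-Hochberg adjustment over all of them and 0.05 as the threshold. Differences within the sets of numbers, and between them, came from a fit of 4 group means. No cell line covariate could be fitted, since the labels do not give the line pair. The replicate numbers 1 to 8 are in the labels of both groups. Deviations of same-numbered samples from the means of their transgene correlated at 0.152 to 0.303 in all 8 pairs. Such deviations still hold the difference between the sets of numbers, so they cannot show pairing. Within the sets of numbers the correlations were -0.007 to 0.119. There the best match of a *GFP*-NSPC sample among the *Dbx2*-NSPC samples had the same number in 1 of 8. The main fits therefore did not pair the samples, and the replicate block is given only as an alternative. The fits were tested on simulated data. The 4 genes and the lists were chosen with earlier results of these data known. Genes named from a list are up to 4 called genes with the largest differences that averaged 10 CPM or more in 1 of the groups; for each of the 4 genes, the 5 genes with the most alike profile and the 3 nearest tested genes on each side are named. The result for 1 gene that this rule names is not reported here.

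Alternatives were pseudocounts of 0.1 and 2, no filter, a mean of at least 10 CPM, the replicate block, quantile scaling, median-of-ratios scaling, eBayes with no trend, the set of numbers as a covariate, each set fitted alone, the ratio of summed CPM, edgeR 4.0.16 on recovered reads, and each sample left out. Positions and coding sequences came from GENCODE M21 on GRCm38, and the promoter sequences of *Basp1* and *Marcksl1* from RefSeq on GRCm38.p6; those of *Gap43* and *Marcks* were not used here. Tables were handled with Python 3.11.15, pandas 2.3.3 and numpy 2.4.6, and figures with matplotlib 3.10.9.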

Additional observations from a re-analysis of the deposited data

Results flagged for a closer look

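*Gap43* was at 362.89 CPM in *Dbx2*-NSPC sample 5, farther from the other *Dbx2*-NSPC samples than Dixon's 95% critical value allows. It was the only such value in 24 groups of 4 or 8 samples looked at for the 4 genes, and chance gives about 1 in 20.

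For 52 named genes outside the 4, limma's fit compared the transgene difference between the sets of numbers. Values are the log2 difference in the samples numbered 5 to 8 less that in those numbered 1 to 4. The list genes among the 52 had been picked for large differences between the transgenes. The sets differed for 8 of the 52, against 9.44% of all tested genes. Among the list genes these were *Pcp4l1* with 2.084 (adjusted p = 7.05e-07), *Camk1* with 1.018 (adjusted p = 0.0348), *Cap2* with -1.191 (adjusted p = 0.033), *Dpysl3* with -1.948 (adjusted p = 9.41e-09) and *Stmn3* with 1.475 (adjusted p = 0.000427). Among the neighbouring genes they were *Lsamp* with 1.066 (adjusted p = 0.00023), *Ccdc191* with -0.906 (adjusted p = 0.0325) and *Hdac2* with -0.649 (adjusted p = 0.00153).

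Of the 139 tested list genes, 8 were called in opposite directions in the sets, against 1.76% of all tested genes, and they were picked for that after their values were seen. They were *Akap12* (-2.658, adjusted p = 3.63e-08), *Nrgn* (1.425, adjusted p = 3.79e-05), *Plcb3* (-1.503, adjusted p = 0.000175), *Camkk2* (-1.385, adjusted p = 1.94e-06), *Wasf2* (-0.908, adjusted p = 7.62e-05), *Capzb* (-1.54, adjusted p = 0.000116), *Mapt* (1.22, adjusted p = 3.7e-05) and *Dcx* (5.892, adjusted p = 3.26e-07). *Dcx* had a mean of 2.28 CPM, near the floor of 3 reads.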

How the results depend on the processing

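All 324 values of the 4 genes under the alternatives moved by less than the spread between replicates. Some alternatives leave a log2 difference between groups of equal size as it is, so those values could not have moved. Among them are the replicate block, the set of numbers as a covariate and eBayes with no trend. A difference within 1 set of numbers also stays the same when a sample of the other set is left out. The count of genes called over all samples, 1982, moved to 3034 (1501 higher, 1533 lower) with the set of numbers as a covariate. It was 1679 to 2207 without any 1 sample and 1928 with edgeR. With the replicate block 2723 genes were called over all samples (1359 higher, 1364 lower), 2755 and 2786 within the sets of numbers, and 1308 for their difference, and 47 list genes. The block added the calls of *Gap43*, *Gm2824*, *Frk* and *Tmem234* and changed no other call of a named gene. The call of *Gap43* is no test of it, since it was chosen with its differences known. The list genes called were 39 to 48 without any 1 sample and 42 with edgeR. Calls were lost for *Add3*, *Plcb1*, *Plce1*, *Prkd1*, *Cdh10*, *Tube1*, *Lama4* and *Dpysl3*, as given with them, and no called difference reversed, while the uncalled difference of *Gap43* in the samples numbered 1 to 4 ran from -0.36 to 0.05. The cause of these changes was not tested. The line pair is not in the labels, and the depth of at most 3293285 reads leaves genes near 1 CPM resting on a few reads.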
